A study of Mus musculus with 5480 samples.

Results

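Adventitial fibroblasts of the mouse lung were followed over the 2 weeks in which the gas-exchange surface is finished, from postnatal day 7 (P7) to postnatal day 21 (P21). The comparison set cells labelled Adventitial fibroblast at P21 against cells labelled Early adventitial fibroblast at P7, both from mice kept in normal air. It held 342 cells of the 5480 in the study, 104 at P7 and 238 at P21. Each age was represented by 1 female and 1 male mouse, and the reads of a mouse's cells were summed, so that n = 2 mice a side. The subtype labels are the submitters' own and were assigned to the same cells. By the rule, 2 cells at P7 with the later label and 9 cells at P21 with the early label were left out.

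The submitters sorted cells of the distal lung by flow cytometry and sequenced them singly in plates. By their titles, 4 of the 342 cells compared came from a CD31 sort, 2 of the male P7 mouse and 1 of each P21 mouse, and the others from the mesenchymal sort. Its normal-air groups were embryonic day 18.5 (E18.5), P1, P7 and P21, and a further group at P7 had been kept in hyperoxia, that is, air enriched with oxygen. The labels name no strain, genotype or transgene. All 5 groups, with 10 mice in all, entered the estimate of the spread between mice, and the 6 mice outside the comparison contributed early adventitial cells.

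Adventitial fibroblasts lie in the connective tissue cuffs around the airways and larger vessels, whereas alveolar fibroblasts lie in the walls of the air spaces. Adventitial cells lay down collagen, proteoglycans and elastic fibre components, and in the adult they are known as a source of complement proteins, chemokines and growth factor-binding proteins. Tissue that is still growing is rich in provisional matrix proteins such as periostin and tenascin C, which are replaced as the matrix matures.

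The female and male P7 mice gave 49 and 55 cells with 57864166 and 61363552 reads. The female and male P21 mice gave 153 and 85 cells with 152702638 and 103226068 reads. Median reads per cell lay between 957996 and 1093846 in the 4 mice, so depth per cell was similar. After each cell was thinned to 100000 reads, the median number of genes was 2492 and 2511 in the female and male at P7, and 3238 and 2119 at P21. The male P21 mouse was therefore the lowest of the 4 and the female P21 mouse the highest. The mesenchymal-sort cells of both males were sequenced in the same run, labelled DC35, and those of the females in separate runs, DC20 at P7 and DC21 at P21. The 4 CD31-sort cells were sequenced in other runs, so values within a run are those of the males without these cells.

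Levels of markers were compared between the 2 fibroblast classes. The submitters assigned the labels from the same cells, so these levels are a description and no check of the labels. Pi16, a marker of adventitial fibroblasts, was at 51.8 and 94.4 CPM (read counts scaled to a common library size) in the female and male adventitial cells at P7 and at 888 and 633 CPM at P21. In the alveolar fibroblasts of the same mice it was at no more than 0.108 CPM. Dcn, the proteoglycan decorin, was at 3145 and 3471 CPM at P7 and at 11052 and 15231 CPM at P21 in adventitial cells, against 9.92 to 65.2 CPM in alveolar cells. Npnt, the alveolar marker nephronectin, lay between 51.8 and 74.5 CPM in the adventitial cells of the 4 mice and between 1170 and 4139 CPM in the alveolar cells. Each of these 3 genes thus separated the 2 classes in all 4 mice. They were picked from 15 adventitial and 13 alveolar markers tested, and how many of the others separated the classes was not counted. Among the other alveolar markers, adventitial cells at P21 held Inmt at 2915 and 4337 CPM of total reads and Col13a1 at 10.1 and 3.08 CPM.

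Promoters of 6 of the genes described below are shown first, so that the sequences can be read beside their values. They are 3 that rose and share a match to the AP-1 motif, the hyaluronan synthase Has1, which rose without such a match, and 2 that fell. Shown are the 250 bases before the RefSeq transcription start, 5′ to 3′ on the gene's strand, build GRCm38.p6. Capitals mark matches, on either strand, to any of 7 searched motifs, whose letters are given after the sequences.
Mmp3, chr9:7445572-7445821, plus strand: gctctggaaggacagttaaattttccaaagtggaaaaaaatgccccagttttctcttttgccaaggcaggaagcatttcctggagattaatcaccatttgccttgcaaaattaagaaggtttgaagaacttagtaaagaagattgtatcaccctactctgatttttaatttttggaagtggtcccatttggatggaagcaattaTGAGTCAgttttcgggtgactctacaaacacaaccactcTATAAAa
Gfpt2, chr11:49793905-49794154, plus strand: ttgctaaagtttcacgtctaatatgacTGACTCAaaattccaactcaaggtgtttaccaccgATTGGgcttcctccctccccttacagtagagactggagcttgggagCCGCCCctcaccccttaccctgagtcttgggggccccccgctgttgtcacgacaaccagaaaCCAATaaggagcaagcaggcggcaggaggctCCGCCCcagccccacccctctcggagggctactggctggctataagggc
Tnfaip6, chr2:52037863-52038112, plus strand: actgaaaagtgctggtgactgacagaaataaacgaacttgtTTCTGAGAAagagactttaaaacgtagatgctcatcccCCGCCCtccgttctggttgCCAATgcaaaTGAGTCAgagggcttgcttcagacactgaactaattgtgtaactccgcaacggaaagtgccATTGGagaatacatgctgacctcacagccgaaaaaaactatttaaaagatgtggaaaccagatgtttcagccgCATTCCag
Has1, chr17:17855189-17855438, minus strand: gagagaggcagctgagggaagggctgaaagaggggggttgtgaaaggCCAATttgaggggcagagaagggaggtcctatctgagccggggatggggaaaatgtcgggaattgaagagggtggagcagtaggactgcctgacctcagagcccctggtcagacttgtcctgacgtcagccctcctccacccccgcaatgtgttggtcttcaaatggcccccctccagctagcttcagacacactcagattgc
Prss35, chr9:86743383-86743632, plus strand: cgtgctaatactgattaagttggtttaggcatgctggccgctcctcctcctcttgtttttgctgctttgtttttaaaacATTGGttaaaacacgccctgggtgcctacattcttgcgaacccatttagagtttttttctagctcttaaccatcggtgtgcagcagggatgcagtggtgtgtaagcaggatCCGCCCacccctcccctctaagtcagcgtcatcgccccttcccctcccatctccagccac
Postn, the second of 2 starts in RefSeq, chr3:54360857-54361106, plus strand: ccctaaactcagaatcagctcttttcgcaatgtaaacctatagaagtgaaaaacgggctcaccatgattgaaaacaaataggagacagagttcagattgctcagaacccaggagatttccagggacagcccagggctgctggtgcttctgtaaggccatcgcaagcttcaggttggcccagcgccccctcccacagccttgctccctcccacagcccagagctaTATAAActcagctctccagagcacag

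The AP-1 letters began 46 bases before the start in Mmp3, 142 in Tnfaip6 and 223 in Gfpt2. A promoter was at hand for 19 of the 22 genes that passed the test described next, 11 that rose and 8 that fell. A gene was counted when any of its listed starts held the motif, and shares of all genes with a promoter in the RefSeq table, 27025 in number, were counted in the same way. The AP-1 motif, spelled TGANTCA, was found in 3 of the 11 and in 0 of the 8, against 7.82% of all genes. The box spelled CCAAT was found in 9 of the 11 and 3 of the 8 (37.5% of all genes). The TEAD motif, spelled GGAATG, was found in 5 of the 11 and 2 of the 8 (14.4%). The TATA box, searched as TATAAA, was found in 4 and 3 (14.3%), and the GC box, searched as GGGCGG, in 7 and 3 (35.4%). The STAT motif, searched as TTCNNNGAA, was found in 1 of each group (8.13%), and the E-box, searched as CACGTG, in none of either (6.86%). A match describes letters in this window and was not tested as a binding site.

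Between P7 and P21, 22 of 15265 genes passed the threshold of adjusted p under 0.05 (edgeR quasi-likelihood test, two-sided, Benjamini-Hochberg). Of these 13 were higher at P21, which is 0.0852% of the genes tested, and 9 were lower, which is 0.059%. The higher genes encode the actin-severing protein gelsolin (Gsn), a matrix metalloproteinase (Mmp3), enzymes and a binding protein of hyaluronan (Has1, Gfpt2, Tnfaip6), apolipoprotein E (Apoe) and others. The lower genes encode matrix proteins of growing tissue (Postn, Fbn2, Thbs2), a serine protease-like protein (Prss35), an inhibitor of serine proteases (Serpine2), smooth muscle actin (Acta2) and others. The 22 genes were picked by their change in these same mice, so what follows about them is a description and no further support. All 22 had the same direction in the females and in the males, also within the males' shared run once the CD31-sort cells were left out, and in all 22 both P21 mice lay at least 2-fold apart from both P7 mice. A further measure without a test counted genes separated in that way with a mean of at least 10 CPM at the higher age. By that measure 611 genes, or 4% of those tested, were separated upward and 381, or 2.5%, downward. With CPM of total reads in place of TMM-scaled CPM, the split was 471 upward and 492 downward, and the median log2 change of all genes was -0.08 in place of 0.09.

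The number of genes called depended on which mice were in the fit. Without the male P7 mouse 2 genes passed, without the female P7 mouse 3, and without the male P21 mouse 5. Leaving out an E18.5 mouse raised the number to 80 (female) or 79 (male), and leaving out a P1 mouse raised it to 44 (female) or 45 (male). With the 8 mice in normal air alone 5 passed, and DESeq2 called 881 genes in place of edgeR's 22. Prss35 passed in 10 of 10 fits that each left out 1 mouse but not with equal numbers of cells drawn per mouse (adjusted p 0.0762, edgeR), Gsn and Mmp3 passed in 8 of 10, and Ifrd1, which encodes a transcriptional co-regulator, in 2 of 10.

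**Figure D1:**
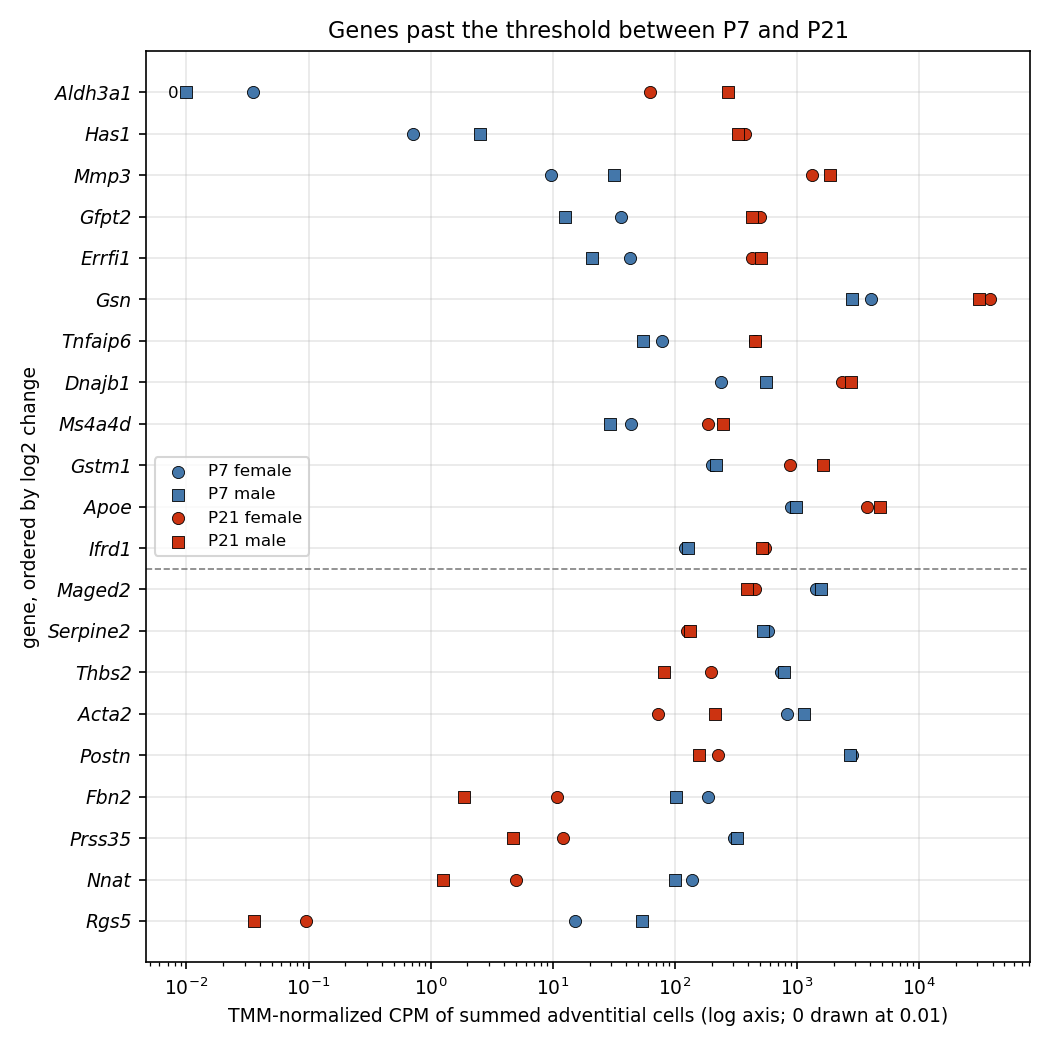
TMM-scaled CPM (log axis) of 21 of the 22 genes past the threshold, with 1 point for each of the 4 mice, by age and sex; a level of 0 is drawn at 0.01 CPM. For each gene both P21 points lie on the same side of both P7 points.

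Per kilobase of exon, gelsolin was the most abundant at P21 of the genes that rose. Gsn was at 4078 and 2808 CPM in the female and male at P7 and at 37817 and 30845 CPM at P21. Both P21 mice lay far above both P7 mice, a 9.97-fold difference of the means (log2 3.32, SE 0.31, adjusted p 0.004, edgeR). Its level per kilobase went from 1216 to 12127 CPM per kb, and its rank among all genes on that scale from 32 to 3. The rise was carried by nearly all cells: at least 10 CPM of Gsn was found in 93.9% and 96.4% of cells at P7 and in 100% of cells in both mice at P21. The median cell held 3424 and 2117 CPM at P7 and 30698 and 24105 CPM at P21. Its mean level was 4013 CPM at E18.5, 3533 CPM at P1 and 2894 CPM in hyperoxia at P7, all near the P7 level in normal air.

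Mmp3, or stromelysin 1, degrades proteoglycans, fibronectin and other matrix proteins and activates other metalloproteinases. It was at 9.65 and 31.5 CPM at P7 and at 1322 and 1878 CPM at P21, a 77.8-fold difference (log2 6.50, SE 0.56, adjusted p 0.004, edgeR). The P7 reads came from very few cells, with 99.9% of the reads of the male P7 mouse in 1 cell. At least 10 CPM was found in 4.08% and 1.82% of cells at P7 and in 41.8% and 38.8% at P21. Mmp3 was thus found in a minority of cells at P21, unlike Gsn. Without the CD31-sort cells, Mmp3 was at 9.52 and 0.0166 CPM of total reads at P7 and at 1196 and 1534 CPM at P21. The log2 change was then 8.45, and the call was lost (adjusted p 0.164, edgeR).

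Of the 15 tested metalloproteinases and inhibitors, 1 passed the test and 4 were separated upward, with 0 downward and a median log2 change of 0.62 against 0.09 for all genes. Timp3, an inhibitor bound to the matrix, was at 229 and 445 CPM at P7 and at 2392 and 1487 CPM at P21, just short of the threshold (adjusted p 0.0547, edgeR). Timp2, which inhibits metalloproteinases and helps to activate Mmp2, was at 1006 and 808 CPM and then at 2597 and 2203 CPM (adjusted p 0.148, edgeR). Mmp2, the gelatinase of fibroblasts, was at 1924 and 2052 CPM at P7 and at 3318 and 4144 CPM at P21 and did not pass. Both proteases and both inhibitors thus lay higher in both P21 mice. Mmp3 alone passed the edgeR threshold, a call that was lost without the CD31-sort cells. DESeq2 and limma-voom each called 5 of the 15 genes higher and 0 lower.

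Hyaluronan is a long sugar polymer of the extracellular matrix, made at the cell surface by hyaluronan synthases. Has1, 1 of the synthases, was at 0.718 and 2.51 CPM at P7 and at 374 and 329 CPM at P21 (log2 7.72, SE 1.10, adjusted p 0.0433, edgeR). Without the CD31-sort cells the log2 change was 8.84 (adjusted p 0.0200). At P21, 32.7% and 32.9% of cells held at least 10 CPM of Has1, against 2.04% and 3.64% at P7. Gfpt2, which makes the first committed precursor of amino sugars, was at 36.0 and 12.6 CPM at P7 and at 498 and 425 CPM at P21, 19.0-fold higher (log2 4.42, SE 0.54, adjusted p 0.0294, edgeR). Its share of cells at 10 CPM or more was 12.2% and 10.9% at P7 and 69.3% and 58.8% at P21. Tnfaip6, or TSG-6, a secreted protein that binds hyaluronan and links proteins to it, was at 77.8 and 55.4 CPM and then at 454 and 451 CPM (log2 2.76, SE 0.42, adjusted p 0.0454, edgeR). For each of these 3 genes both P21 mice lay above both P7 mice.

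Ugdh, which makes the other sugar precursor, UDP-glucuronate, was at 151 and 168 CPM at P7 and at 599 and 728 CPM at P21. It was separated upward but did not pass (adjusted p 0.0622, edgeR). Has2, the synthase that dominates in embryonic tissue, was at 1.02 and 19.3 CPM and then at 10.1 and 50.5 CPM, so the ages overlapped. Cd44, the main surface receptor of hyaluronan, was at 103 and 198 CPM and then at 165 and 196 CPM. Of 17 tested members of the hyaluronan list, 3 passed the test, all higher, 4 were separated upward and 0 downward (1 downward with CPM of total reads), with a median log2 change of 0.49. Has1 was also present before P7, with a mean of 9.46 CPM at E18.5 and 93.2 CPM at P1, and was at 32.6 CPM in hyperoxia at P7, all below the mean of 352 CPM at P21.

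**Figure D2:**
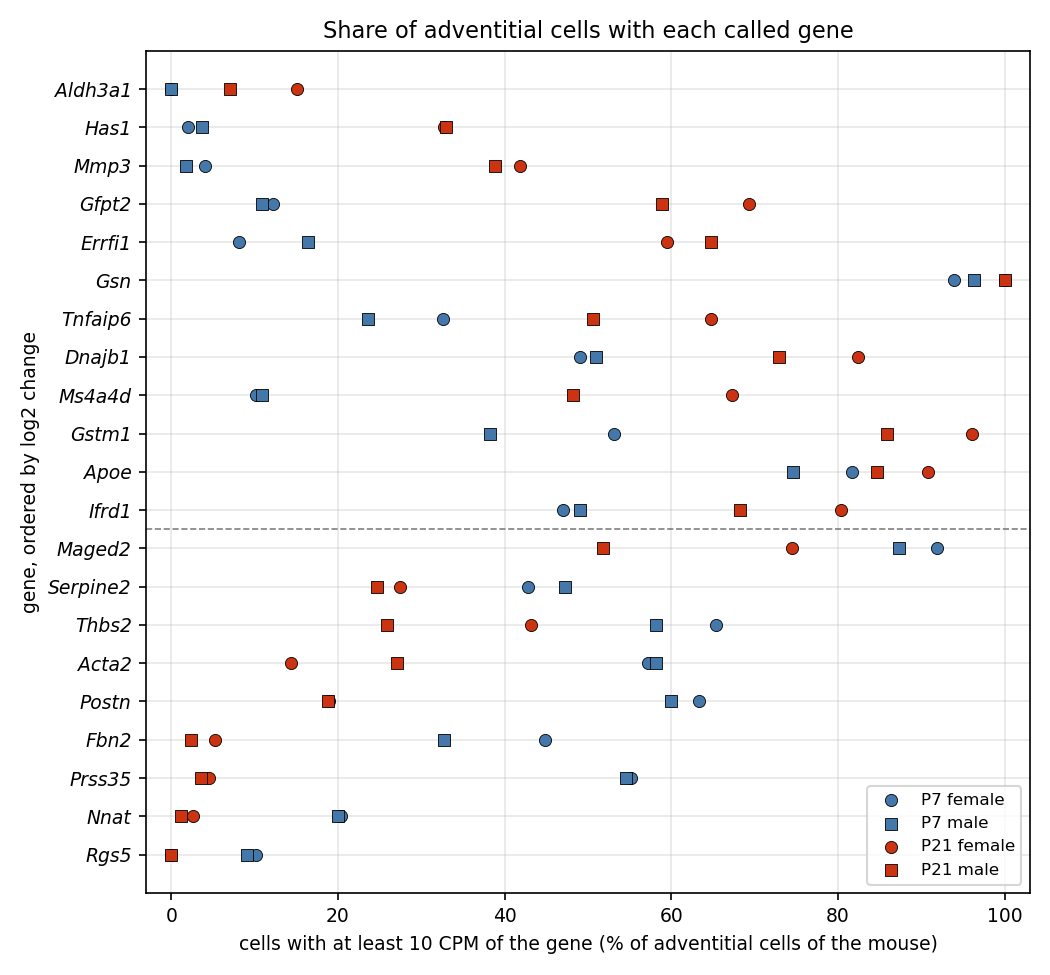
Share of adventitial cells (%) with at least 10 CPM of each of 21 called genes, with 1 point per mouse at P7 and P21. Gsn lies near 100% at both ages, Mmp3 and Has1 reach 32.7% to 41.8% at P21, and Prss35 drops from 55.1% and 54.5% to 4.58% and 3.53%.

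Complement is a protein cascade that tags and lyses targets, and other proteins restrain it. Of 18 tested complement components and regulators, 9 were separated upward and 0 downward (1 downward with CPM of total reads). The list's median log2 change was 1.84 against 0.09 for all genes, and 14 members were higher and 2 lower in both sexes.

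Among the components that were separated without passing, C3, the central component, was at 31.4 and 7.27 CPM at P7 and at 1538 and 1708 CPM at P21 (adjusted p 0.161, edgeR). C3 was found at 10 CPM or more in 6.12% and 5.45% of cells at P7 and in 77.8% and 63.5% at P21, and 95.0% of the P7 female's C3 reads came from 1 cell. C4b, which has a near-identical copy, was at 31.9 and 30.2 CPM and then at 435 and 400 CPM. Serping1, the inhibitor of the first complement proteases, was at 2915 and 3462 CPM and then at 7023 and 8492 CPM. C7, part of the pore-forming complex, had 0 and 0.034 CPM at P7 and 110 and 88.4 CPM at P21. The activating and the inhibiting arms were thus both represented among the separated genes.

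The other genes that rose belong to lipid, stress and signalling functions. Apoe, the lipid carrier apolipoprotein E, was at 892 and 981 CPM at P7 and at 3757 and 4775 CPM at P21 (4.55-fold, log2 2.19, SE 0.32, adjusted p 0.0433, edgeR). Errfi1, a feedback inhibitor of the EGF receptor, was at 43.3 and 20.9 CPM and then at 432 and 508 CPM (14.6-fold, adjusted p 0.0433). Gstm1, a glutathione transferase with close paralogues, was at 202 and 218 CPM and then at 872 and 1649 CPM. All 3 had both P21 mice above both P7 mice.

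Dnajb1, a co-chaperone of the heat shock response, rose from 239 and 562 CPM to 2327 and 2765 CPM (6.36-fold, adjusted p 0.0433, edgeR). Ifrd1 rose from 121 and 129 CPM to 546 and 515 CPM, and Ms4a4d, a membrane protein, from 43.7 and 29.5 CPM to 187 and 250 CPM. Aldh3a1, an aldehyde dehydrogenase, had 2 reads at P7 and 31405 at P21, a ratio of 7315 (95% exact interval 2025 to 60407, covering counting error only, since reads are not molecules). Its P21 levels differed between the mice, 62.9 CPM in the female and 271 CPM in the male, where 76.8% of the reads came from 1 cell.

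Genes that mark recent stress or handling of cells were also mostly higher at P21. Of the 23 immediate early genes, which are induced within minutes by stimulation and also by tissue dissociation, 20 were higher in both sexes at P21 and 0 lower. None passed the test, 7 were separated upward, and the median log2 change was 1.15. Fos was at 4747 and 3688 CPM at P7 and at 8697 and 6238 CPM at P21, and Atf3, a stress-induced transcription factor, at 213 and 205 CPM and then at 1328 and 892 CPM. Over all genes tested, 4689 were higher and 3689 lower in both sexes. Their part in the higher values of Dnajb1, Errfi1, Has1, Tnfaip6 and the chemokines was not tested.

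Among the genes that fell, Prss35, a secreted serine protease-like protein, had the smallest adjusted p. It was at 306 and 325 CPM at P7 and at 12.1 and 4.72 CPM at P21 (37.6-fold lower, log2 -5.29, SE 0.47, adjusted p 0.004, edgeR). Cells with at least 10 CPM made up 55.1% and 54.5% at P7 and 4.58% and 3.53% at P21. Both P21 mice lay far below both P7 mice in level and in share.

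Postn encodes periostin, a matricellular protein of growing and remodelling connective tissue. It was at 2845 and 2698 CPM at P7 and at 227 and 156 CPM at P21 (14.4-fold lower, log2 -3.87, SE 0.52, adjusted p 0.0433, edgeR). Its share of cells at 10 CPM or more was 63.3% and 60.0% at P7 and 19.0% and 18.8% at P21. The level had been low before birth, with a mean of 207 CPM at E18.5, 1603 CPM at P1 and 2771 CPM at P7. Postn was the only 1 of the 9 lower genes whose P21 mice did not lie below all 8 other mice, and the 13 higher genes at P21 all lay above the other 8.

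Thbs2, the matricellular protein thrombospondin 2, was at 737 and 779 CPM at P7 and at 199 and 81.1 CPM at P21 (log2 -2.55, SE 0.39, adjusted p 0.0436, edgeR). Fbn2, fibrillin 2, the fibrillin typical of developing microfibrils, was at 186 and 101 CPM and then at 10.9 and 1.89 CPM (log2 -4.65, SE 0.70, adjusted p 0.0433, edgeR). Its mean level was 404 CPM at E18.5, 280 CPM at P1, 144 CPM at P7 and 6.40 CPM at P21, a descent through each age. Serpine2, a secreted inhibitor of serine proteases, was at 581 and 524 CPM and then at 126 and 132 CPM (4.28-fold lower). Maged2 fell from 1445 and 1566 CPM to 449 and 388 CPM (3.60-fold lower).

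**Figure D3:**
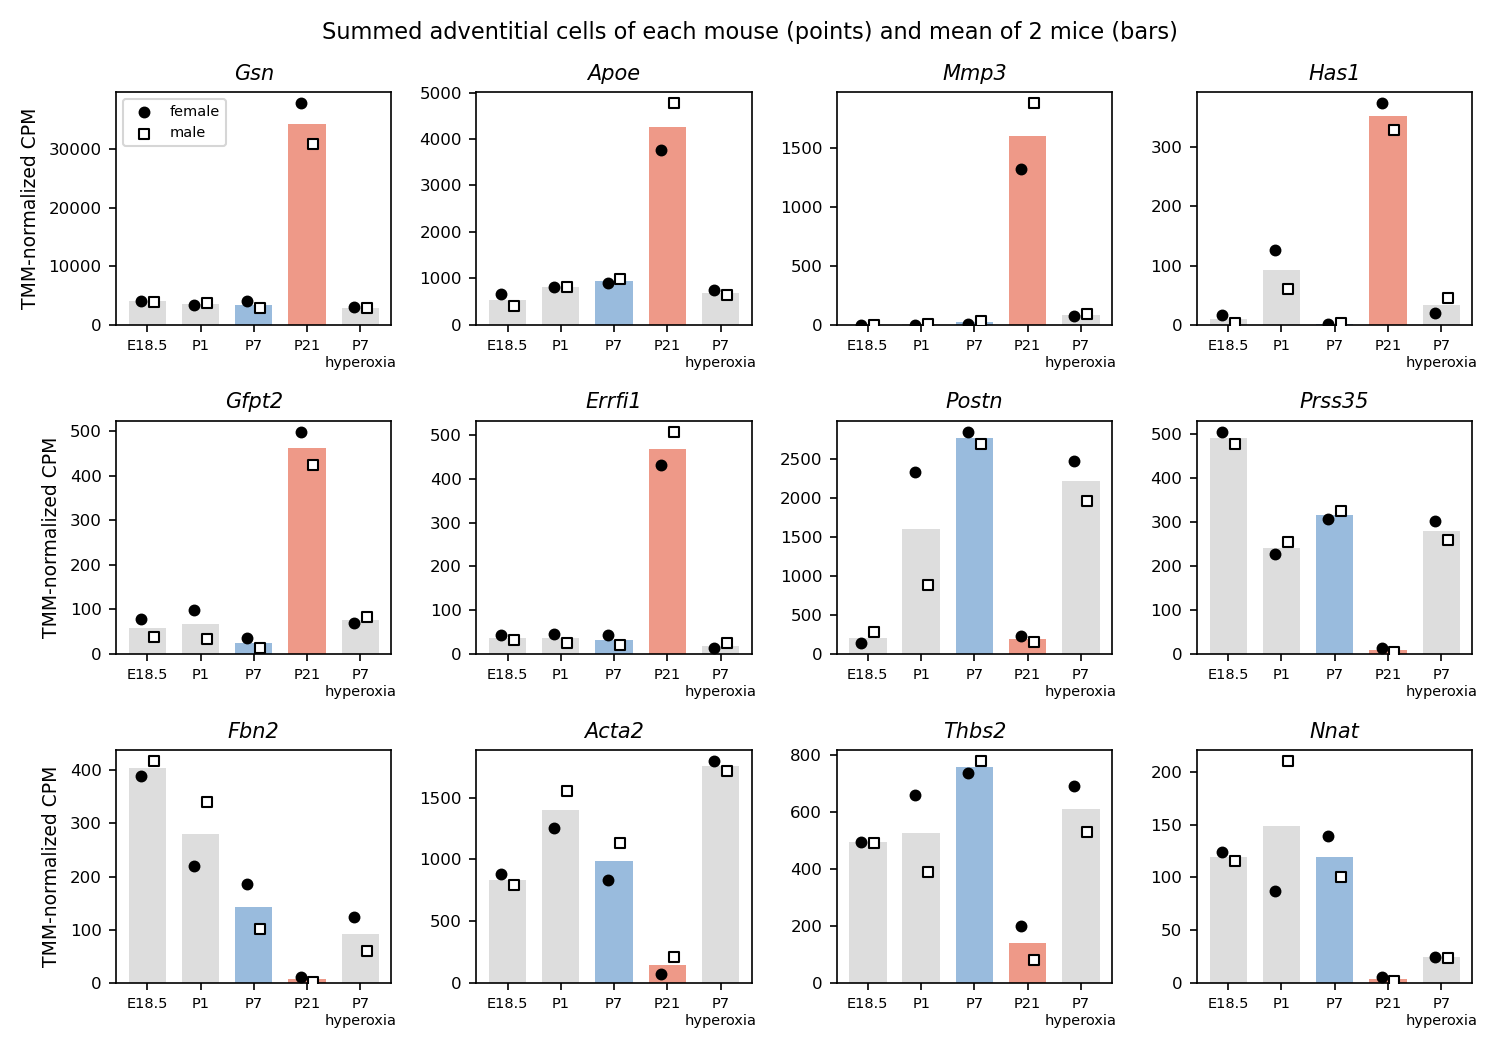
Mean CPM of the 2 mice (bars, from 0) and each mouse (points) for 12 of the called genes at E18.5, P1, P7, P21 and P7 in hyperoxia. Gsn stays between 2894 and 4013 CPM before reaching 34331 CPM at P21, Fbn2 declines at each age, and Postn is low at E18.5 and at P21 and high between.

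The abundant structural matrix genes did not pass in either direction. Col1a1 was at 18473 and 17328 CPM at P7 and at 19054 and 19891 CPM at P21 (log2 0.12, SE 0.28, adjusted p 0.926, edgeR). Col3a1 was at 17683 and 18623 CPM and then at 19360 and 24156 CPM. Of the 11 fibrillar collagens, 0 passed, 1 was separated upward (Col5a3) and 1 downward (Col11a1; 2 with CPM of total reads), with a median log2 change of -0.25. Col11a1, a minor collagen that nucleates fibrils, was at 36.4 and 6.52 CPM at P7 and at 0.430 and 0.452 CPM at P21.

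Of 21 other collagens, 0 passed, 5 were separated upward and 2 downward, with a median of -0.11. Those upward were Col15a1 and Col18a1, collagens of the basement membrane zone, and Col4a3, Col4a4 and Col4a6, which form networks in specialised basement membranes. Col15a1 was at 26.3 and 14.2 CPM at P7 and at 243 and 163 CPM at P21 (adjusted p 0.407, edgeR). Of 22 collagen-processing genes, 0 passed, and 2 were separated downward, P4ha3 and Adamts14, with a median of -0.08.

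Of 22 elastic fibre and crosslinking genes, Fbn2 passed, 2 were separated downward and 0 upward. The list's median was 0.03 with TMM scaling and -0.16 with CPM of total reads. Eln, elastin itself, was at 4723 and 3194 CPM at P7 and at 2341 and 3148 CPM at P21, and Fbn1, the fibrillin of mature microfibrils, at 1521 and 1629 CPM and then at 1574 and 1834 CPM; neither passed. Mfap2, a glycoprotein of microfibrils, was at 2436 and 2988 CPM and then at 478 and 1144 CPM (adjusted p 0.114, edgeR).

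Of 13 tested proteoglycans, 0 passed and 5 were separated upward, Dcn, Lum, Podn, Prelp and Ecm2, with 0 downward. The median was 0.18 and turned to -0.01 with CPM of total reads. Lum, lumican, which spaces collagen fibrils, was at 629 and 505 CPM at P7 and at 1909 and 1818 CPM at P21 (adjusted p 0.333, edgeR). Of 18 matricellular genes, 2 passed, both lower (Postn and Thbs2), and 3 were separated in each direction. Tnc, tenascin C, was at 165 and 208 CPM at P7 and at 0 and 45.6 CPM at P21, and Smoc2, which binds calcium and matrix, at 142 and 121 CPM and then at 627 and 606 CPM.

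Lists with no member past the threshold were also counted by less strict measures. Over all genes, 5.98% were higher and 4.36% lower at an unadjusted edgeR p under 0.05. DESeq2 called 3.49% higher and 2.29% lower, and limma-voom 0.983% and 0.269%. Of the 23 immediate early genes, 16 were higher and 0 lower at the unadjusted p, and DESeq2 and limma-voom called 8 and 5, all higher. Of the 22 chemokines and cytokines described below these counts were 9 higher, then 4 and 2, and of the 13 proteoglycans 6 higher and 2 lower, then 5 and 2 higher. For the 11 fibrillar collagens they were 1 lower, then 1 lower and 0. Among the 21 other collagens 4 were higher and 2 lower at the unadjusted p, and of the 22 collagen-processing genes 3 were higher and 1 lower. Of the 24 cell division genes 1 was higher and 4 lower, and DESeq2 called 1 higher and 3 lower. For the IGF axis the unadjusted counts were 3 higher and 2 lower, for the Wnt list 3 and 0, for the TGF-beta and BMP list 3 and 3, and for glycolysis 1 and 0. The 15 adventitial markers had 10 higher and 0 lower, and DESeq2 and limma-voom each called 6 higher.

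**Figure D4:**
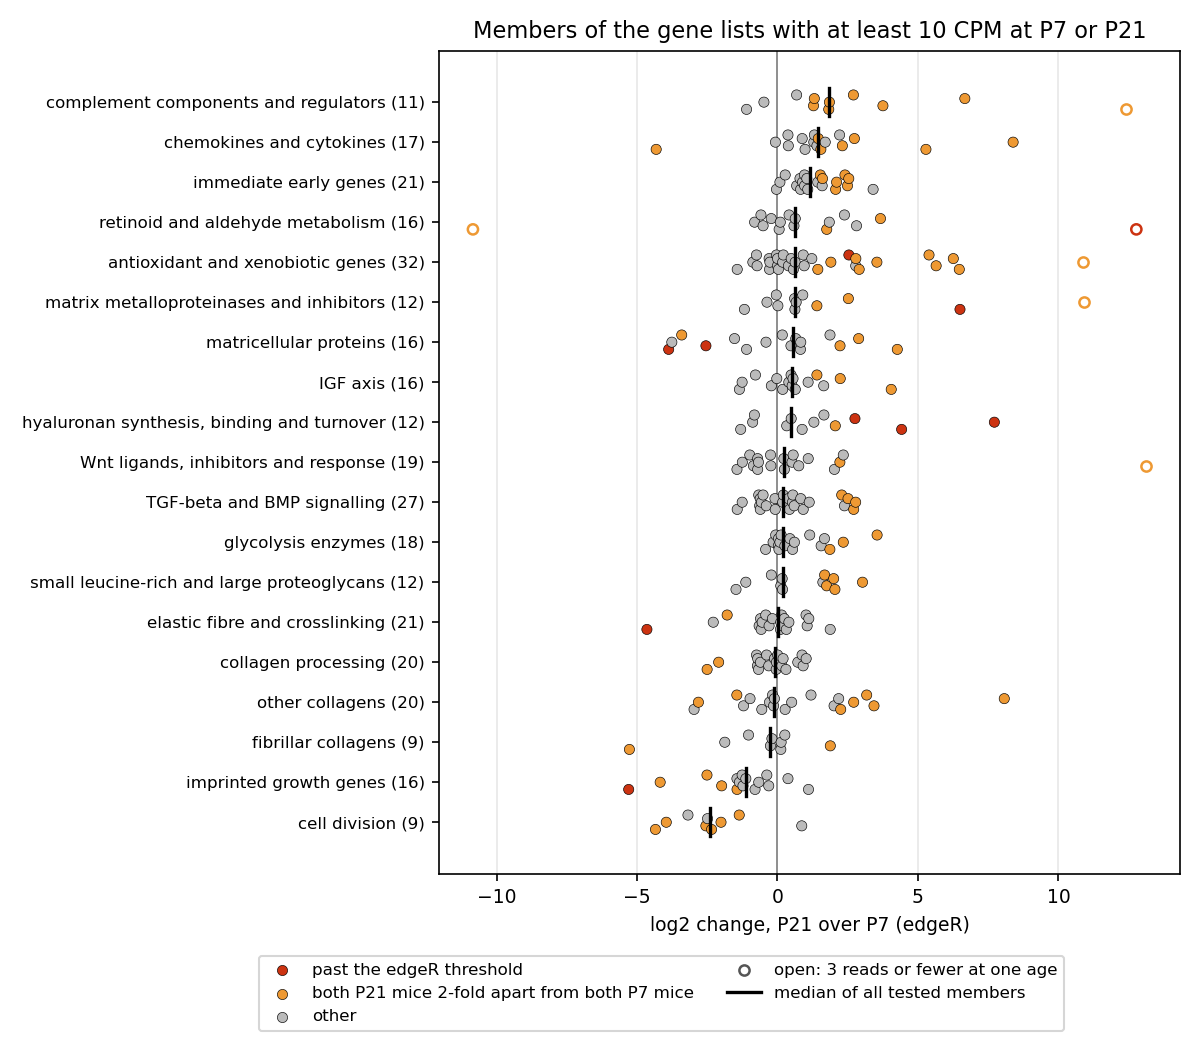
Log2 change from P7 to P21 (edgeR) of the members of 19 gene lists with at least 10 CPM at P7 or P21, with the number of dots in parentheses. Red dots passed the threshold, orange dots were separated 2-fold, open dots had 3 reads or fewer at 1 age, and black bars are medians of all tested members, which run from 1.84 for complement to -2.42 for cell division.

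Acta2, the actin of smooth muscle and myofibroblasts, was at 834 and 1137 CPM at P7 and at 73.3 and 212 CPM at P21 (6.92-fold lower, log2 -2.86, SE 0.42, adjusted p 0.0433, edgeR). Acta2 shares most of its sequence with Actg2, so its counts are uncertain. Cells with at least 10 CPM made up 57.1% and 58.2% at P7 and 14.4% and 27.1% at P21. Of the 9 smooth muscle markers, Acta2 alone passed, 8 were lower and 1 higher in both sexes, and Myh11 and Tagln were also separated downward. The summed level of the 9 markers was 1376 and 1829 CPM of total reads at P7 and 366 and 531 CPM at P21. Acta2 itself made up 822 and 1091 CPM of that sum at P7 and 65.9 and 172 CPM at P21, so the sum is not independent of it. The part of the other smooth muscle markers in the fall of Acta2 was not tested.

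Rgs5, a regulator of G protein signalling and a marker of pericytes, was at 15.1 and 53.4 CPM at P7 and at 0.0947 and 0.0357 CPM at P21 (adjusted p 0.0433, edgeR), with 16 reads at P21. It was confined to a few cells, with 10.2% and 9.09% of cells at 10 CPM or more at P7 and 0% in both mice at P21. Of the 10 pericyte markers, Notch3 was also separated downward, 2 were higher and 2 lower in both sexes, and the median log2 change was -0.15. Higd1b had 0 reads at P21 but was already at 0.553 and 0 CPM of total reads at P7. Trpc6 had 0 reads at P7 and was at 0.00655 and 0.00969 CPM of total reads at P21. The summed level of the list was 382 and 468 CPM at P7 and 412 and 317 CPM at P21, which overlapped.

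Markers of the remaining cell types had low summed levels. The 10 endothelial markers summed to 150 to 231 CPM of total reads in the 4 mice and the 10 immune markers to 47.9 to 74.7 CPM, and their ages overlapped. The 10 epithelial markers summed to 86.3 and 21.8 CPM at P7 and to 8.53 and 40.6 CPM at P21. Cdh1, Sftpb and Nkx2-1 were at 0 at P7 and at no more than 0.0194 CPM at P21. Krt7 was at 10.6 and 1.86 CPM at P7 and at 0 at P21. The 8 mesothelial markers summed to 349 CPM in the P7 female and to no more than 1.02 CPM in the other 3 mice, with Msln, Upk3b, Krt19 and Gpm6a at 0 at P21. In that female 99.5% of Msln reads came from 1 cell. Median log2 changes were 1.43 for the endothelial, 2.90 for the immune, -0.47 for the epithelial and -10.0 for the mesothelial markers. Members higher and lower in both sexes were 4 and 0, 5 and 1, 2 and 3, and 0 and 4, in that order. None passed the edgeR threshold. DESeq2 called 3 epithelial and 2 mesothelial markers lower, and limma-voom 1 epithelial marker. Some members, such as Ptprc and Tie1, lay under 1 CPM in all 4 mice.

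Most imprinted growth genes lay lower at P21. Nnat, neuronatin, an imprinted gene active in growing tissue, fell from 139 and 100 CPM to 5.04 and 1.26 CPM (37.9-fold lower, log2 -5.30, SE 0.74, adjusted p 0.0433, edgeR). Of 19 tested imprinted growth genes, Nnat alone passed, 12 were lower and 2 higher in both sexes, and the median log2 change was -1.13 against 0.09 for all genes. Separated downward were Nnat, H19, Mest, Plagl1 and Cdkn1c, and 0 were separated upward. H19, a growth-restraining RNA, was at 204 and 34.8 CPM and then at 5.90 and 5.65 CPM (adjusted p 0.0516, edgeR), and Mest at 138 and 187 CPM and then at 28.8 and 27.6 CPM (adjusted p 0.0535, edgeR). Cdkn1c, an inhibitor of the cell cycle, was at 378 and 379 CPM and then at 117 and 167 CPM.

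Of 24 tested cell division genes, 0 passed, 6 were separated downward and 0 upward, and 10 were lower and 4 higher in both sexes. The median log2 change was -2.42. Mcm6, part of the helicase that opens DNA for replication, was at 66.1 and 55.9 CPM at P7 and at 16.2 and 5.91 CPM at P21 (adjusted p 0.159, edgeR). Tyms, which makes the thymine nucleotide, was at 78.7 and 42.8 CPM and then at 13.7 and 9.93 CPM. Top2a and Cdk1, markers of cells close to mitosis, were among the 6 separated downward. At P7 99.7% and 100% of the Top2a reads came from 1 cell in each mouse, so its place in that count rests on single cells. Cells in the authors' proliferating subtypes were outside the comparison.

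In the IGF axis, 0 of 16 genes passed and 3 were separated upward, among them Igfbp6, which binds IGF-II, at 449 and 413 CPM at P7 and 923 and 1335 CPM at P21 (adjusted p 0.176, edgeR). With CPM of total reads 1 member was separated upward and 1 downward. Igf1, the growth factor itself, was at 474 and 379 CPM and then at 322 and 836 CPM, with the 2 P21 mice on either side of the P7 mice.

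Chemokines attract blood cells and are made by stromal cells at rest and under stress. Of 22 tested chemokines and cytokines 0 passed, 6 were separated upward and 1 downward, and 18 were higher and 1 lower in both sexes. The median log2 change was 1.43. Cxcl12, which holds stem cells and lymphocytes in tissue, was at 440 and 454 CPM at P7 and at 1414 and 1199 CPM at P21 (adjusted p 0.0757, edgeR). Cxcl1, which attracts neutrophils, was at 382 and 548 CPM and then at 1293 and 1267 CPM. Ccl2, a monocyte attractant with close relatives, was at 0 and 0.408 CPM and then at 19.0 and 103 CPM, with 59.6% of the male P21 reads in 1 cell.

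Of 33 antioxidant and xenobiotic genes, Gstm1 passed, 11 were separated upward and 0 downward, with a median log2 change of 0.63. Mt1, a metallothionein that binds zinc and copper, was at 50.5 and 8.07 CPM at P7 and at 1054 and 2211 CPM at P21 (adjusted p 0.103, edgeR). Mt2 was at 3.77 and 3.26 CPM and then at 119 and 160 CPM (adjusted p 0.0642, edgeR). Sod3, the secreted superoxide dismutase, was at 290 and 330 CPM and then at 1041 and 1299 CPM. Of 23 retinoid and aldehyde genes, Aldh3a1 passed, 3 were separated upward and 1 downward, with a median of 0.63. Aldh1a1, which makes retinoic acid, was at 11.1 and 17.0 CPM and then at 164 and 187 CPM (adjusted p 0.264, edgeR).

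Signalling lists had smaller medians. Of 26 tested Wnt genes, 0 passed, and 2 were separated upward, the ligand Wnt2 and the secreted inhibitor Sfrp4, with a median of 0.24. With CPM of total reads 1 Wnt gene was also separated downward. Wnt2 had 0 reads in both P7 mice, a count that allows up to 3, and was at 17.7 and 7.23 CPM at P21. Of 33 TGF-beta and BMP genes, 0 passed and 4 were separated upward, Tgfbi, Gdf10, Fst and Bmper, with a median of 0.21. Gdf10, a ligand of the family, was at 99.1 and 40.5 CPM at P7 and at 274 and 433 CPM at P21 (adjusted p 0.227, edgeR). Of 20 glycolysis enzymes, 0 passed and 3 were separated upward, with a median of 0.20.

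Of the 15 adventitial markers, 0 passed, 9 were separated upward and 0 downward, with a median log2 change of 2.00. The submitters assigned the labels from the same cells, so the markers' direction is a description. The share of cells with at least 10 CPM of Pi16 was 10.2% and 14.5% at P7 and 68.0% and 51.8% at P21. In alveolar cells of the same 4 mice that share did not exceed 0.459%. Ly6a, an antigen of stromal progenitors with near-identical relatives, was at 51.2 and 188 CPM and then at 525 and 986 CPM, and Cd34, a surface sialomucin, at 665 and 493 CPM and then at 1439 and 1353 CPM. Col14a1 was at 1416 and 1459 CPM and then at 1082 and 1449 CPM, so not all members lay higher at P21.

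The change was compared with that in alveolar fibroblasts of the same mice, early alveolar cells at P7 (218 and 147 cells) and alveolar cells at P21 (181 and 69 cells). An interaction of class and age tested the difference between the 2 changes within mice. With edgeR 0 of 16443 genes passed, 685 had an unadjusted p under 0.05, and DESeq2 and limma-voom called 498 and 55. With the 4 mice at P7 and P21 alone, edgeR called 10. Leaving out 1 mouse gave 48 (female E18.5), 50 (male E18.5) or 1 (male P21).

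Gsn and Apoe also passed in the alveolar cells. Gsn there was at 1903 and 978 CPM at P7 and at 19329 and 16691 CPM at P21 (log2 3.65, adjusted p 0.0435, edgeR). Apoe had a log2 change of 2.89 there (adjusted p 0.0359, edgeR). Of the 13 genes that rose in adventitial cells, 12 had an alveolar value above 0, and Aldh3a1 was not tested there. All 9 genes that fell had an alveolar value below 0. The share of all genes tested with the same direction in both classes is not given here. These counts therefore have no background and describe the called genes only.

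Has1 had a smaller alveolar value, from 8.95 and 6.39 CPM to 34.7 and 12.8 CPM, a difference of log2 6.58 between the 2 changes (SE 1.45, unadjusted p 0.00151, adjusted p 0.475, edgeR). In alveolar cells 73.2% to 100% of the Has1 reads of each of the 4 mice came from 1 cell, so these alveolar values rest on single cells. Tnfaip6 was at 28.7 and 24.2 CPM at P7 and at 68.4 and 33.9 CPM at P21 in alveolar cells. Errfi1 had a larger alveolar value, from 4.49 and 0.653 CPM to 320 and 510 CPM (difference -3.87, adjusted p 0.407). Acta2 was at 1255 and 1289 CPM and then at 62.6 and 167 CPM in alveolar cells, close to the adventitial values. None of these differences passed the adjusted threshold.

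**Figure D5:**
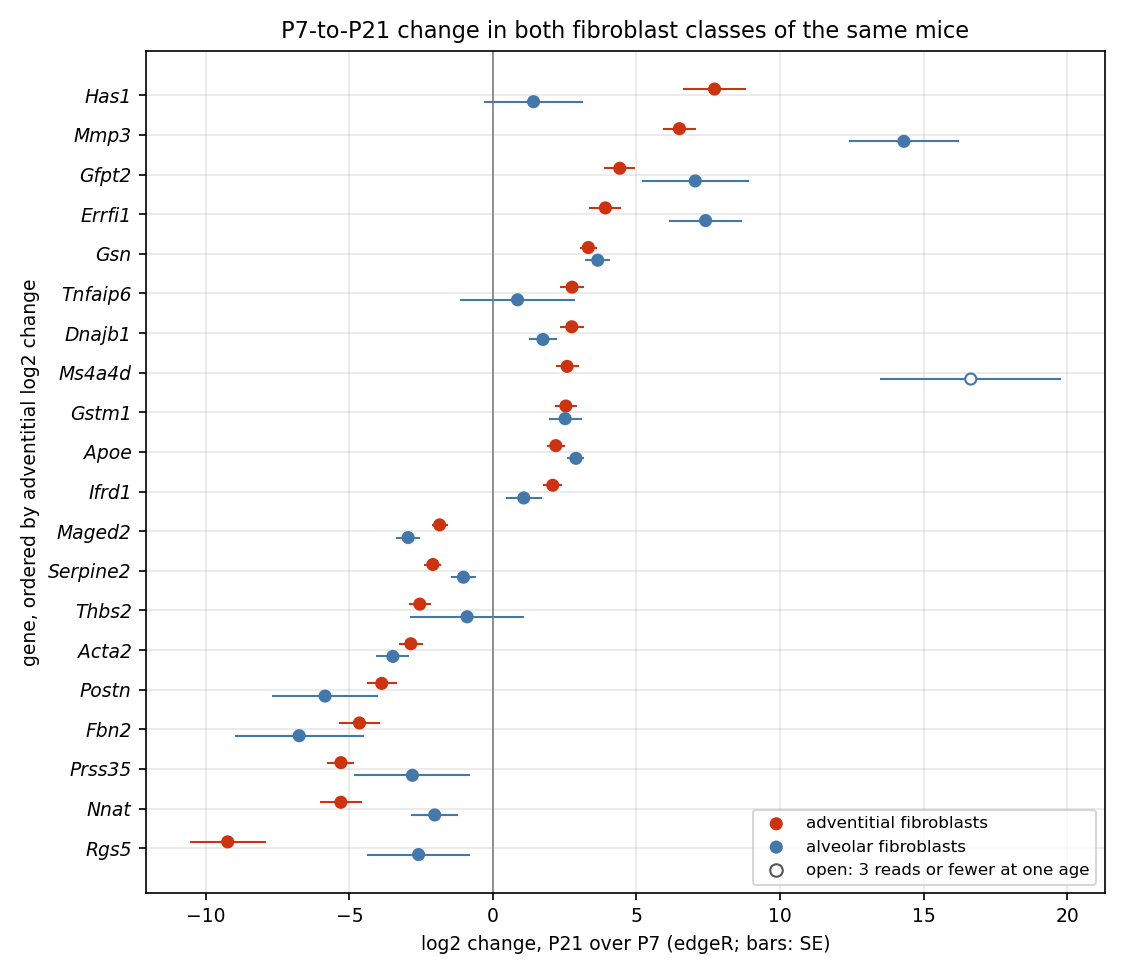
Log2 change from P7 to P21 (edgeR, bars ± SE) of 20 called genes in adventitial and in alveolar fibroblasts of the same 4 mice; the open alveolar point, Ms4a4d, had 1 read at P7. All 20 lie on the same side of 0 in both classes, with Has1 at 7.72 in adventitial and 1.41 in alveolar cells.

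Of the 13 tested alveolar fibroblast markers, 0 passed in adventitial cells (edgeR; 4 were higher and 0 lower at an unadjusted p under 0.05, and DESeq2 and limma-voom called 3 and 2, all higher). Inmt, Wnt2 and Ces1d were separated upward and 0 downward, 5 were higher and 4 lower in both sexes, and the median log2 change was -0.41. Limch1 was at 704 and 678 CPM at P7 and at 509 and 403 CPM at P21. Inmt, which methylates tryptamine and marks alveolar fibroblasts of the adult, was at 8.15 and 35.5 CPM in adventitial cells at P7 and at 3244 and 5322 CPM at P21 (adjusted p 0.0609, edgeR). It was found at 10 CPM or more in 4.08% and 5.45% of cells at P7 and in 77.8% and 75.3% at P21. In alveolar cells it was at 105 and 298 CPM and then at 17619 and 28036 CPM. Per kilobase of exon, Inmt held rank 3047 among genes in adventitial cells at P7 and rank 7 at P21. On that scale Mgp, matrix Gla protein, an inhibitor of calcification, held rank 2 at both ages, Sparc ranks 3 and 4, and Dcn ranks 21 and 5.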

How the data were processed

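Adventitial cells from the 5480 single-cell libraries were summed by mouse. The deposited values are raw read counts per gene and cell, and per the submitters' processing notes the reads went through STAR 2.5.2b and HTSeq 0.10. Those notes name the human build GRCh38 although the organism is mouse, so no coordinates were taken from the authors' table. The labels name no molecular identifiers, so a count is of reads. The table held 18072 genes, with 0 mitochondrial genes and 0 of 33 listed ribosomal protein genes, which are not analysed here. Genes with near-identical copies (Ly6a, Ccl2, Acta2, Mt1, Gstm1, C4b) have uncertain counts.

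Summed counts of 10 mice (all with at least 10 adventitial cells) entered edgeR 4.0.16 (R 4.3.3) with TMM normalization, filterByExpr, terms for group and sex (1 female and 1 male a group, so sex acts as the block), and the quasi-likelihood test, with 4 residual degrees of freedom. The filter left 15265 genes, and the threshold was an adjusted p of 0.05. The interaction with alveolar fibroblasts used 20 libraries with the mouse as a block and 5 residual degrees of freedom. CPM are TMM-scaled unless total reads are named. With 2 mice a side, p-values set a change against a spread between mice that was estimated over all 10 mice. The labels do not say whether mice shared a litter. Exon lengths matched 99.8% of tested genes by GENCODE M21 symbols. No doublet caller was run. Thinning to 100000 reads left out 5 cells.

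Genes were named when they passed the threshold with at least 10 CPM at an age, up to 15 in each direction, and from each gene list when they passed, were separated by at least 2-fold, or were among the 4 most abundant; Npnt, Col14a1, Has2, Cd44, Mmp2, Fbn1, Eln and Igf1 beyond these are textbook members named after their values were seen. The cells compared and the lists were chosen with earlier results of these data known. Intervals are exact at the 95% level. Of the 22 genes past the threshold, 1 is not reported here. The code was tested on simulated data. Alternatives were DESeq2 1.42.0, limma 3.58.1 (voom), other scalings and filters, fewer mice, and leaving out each mouse. Sequences come from RefSeq; figures and tables used Python 3.11.15.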

Additional observations from a re-analysis of the deposited data

How the results depend on the processing

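The count of 22 genes became 35 with upper-quartile factors, 62 with no filter, 58 with a filter at 10 CPM in 2 libraries, 54 with equal numbers of cells drawn per mouse, 191 with limma-voom, 881 with DESeq2 and 5 with the 8 normal-air mice. Without the block (no sex term) it was 50. Leaving out 1 mouse at a time gave 2 to 80 (79 without the male E18.5 mouse, 45 without the male P1 mouse). With the 4 mice alone it was again 22, of which 8 were shared, split 19 higher and 3 lower in place of 13 and 9. The difference from alveolar fibroblasts, 0 genes, became 498 with DESeq2, 55 with limma-voom, 10 with the 4 mice alone, and 0 to 50 when 1 mouse was left out (48 without the female E18.5 mouse). The causes were not tested. All 22 genes kept their direction in every setting run, and Gsn and Gfpt2 passed in 13 of 13 settings other than leaving out 1 mouse. With cells of the early and later labels joined 19 genes passed. Fbn2, Ms4a4d and Ifrd1 then did not (adjusted p 0.0837, 0.0551 and 0.0506, edgeR). With equal weight per cell 28 passed, of which 17 were shared. Has1, Aldh3a1, Errfi1, Serpine2 and Tnfaip6 then did not (adjusted p 0.0651, 0.102, 0.0693, 0.0757 and 0.0532, edgeR). With a 1.5-fold rule 1037 genes were separated upward and 745 downward, and with a 3-fold rule 350 and 170. With 2 mice a side, changes carried by few cells (Aldh3a1, Nnat, Has1 at P7) rest on little material.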
